A study of Arabidopsis thaliana with 12 samples.

Results

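The core histone genes with an HTB or HTR symbol of their own on these Affymetrix arrays were HTB1, HTB2, HTB4 and HTB11, which encode histone H2B, and HTR12, which encodes CENH3, the histone H3 variant of centromeres. The group was taken up with earlier results of these data known. Its members were chosen by symbol. Each was a probe set that the platform annotation pairs with 1 gene, with a symbol beginning with HTA, HTB or HTR and a digit. This gave 5 of 13513 one-gene probe sets: 4 HTB, 1 HTR and 0 HTA. Their loci are AT1G07790 (HTB1), AT5G22880 (HTB2), AT5G59910 (HTB4), AT3G46030 (HTB11) and AT1G01370 (HTR12). None of the 13 listed histone H2A loci was matched to a probe set, whether of 1 gene or of several. No sequence is printed, since none was held for these genes.

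RNA came from whole seedlings of wild-type Arabidopsis thaliana of the Columbia ecotype, described as 3 days old, with 12 arrays in 4 treatments of 3 biological replicates. The seedlings had grown with 10 mM sucrose and 0.2 µM SMX together, with 10 mM sucrose alone, with 0.2 µM SMX alone, or with no addition (control). SMX is sulfamethoxazole, a sulfonamide that blocks dihydropteroate synthase in folate synthesis. Per the labels' protocols the seeds lay in sterile liquid MS medium in foil-wrapped 24-well plates for 3 days at 4 °C, received 6 h of light and grew for 3 days at 21 °C. In RNA from whole seedlings, fewer cells of a kind and less RNA per cell cannot be told apart.

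Nucleosomes wrap DNA around an octamer of histones H2A, H2B, H3 and H4. In dividing cells, most core histone mRNA is made during S phase, when new DNA has to be packaged. Variants such as H3.3 are also made outside S phase, and CENH3 is loaded at centromeres, where it marks the site of the kinetochore. Folate carries the carbon units used to make thymidylate and purines, the building blocks of DNA.

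Values are log2 expression values, so a change of 1 is a doubling. A gene was called when limma's Benjamini-Hochberg adjusted p, over all 22746 probe sets tested, was below 0.05. The lowest value on every array was 2.1184, which is the floor of the scale. Array medians lay between 5.63 and 5.84. The root markers matched to the arrays (the root hair expansins EXPA7 and EXPA18, and AT1G30870, 3 of 6 listed) had group means from 3.25 to 10.9. No marker of green shoot cells and 1 of 6 seed markers (M17) could be matched.

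**Figure D1:**
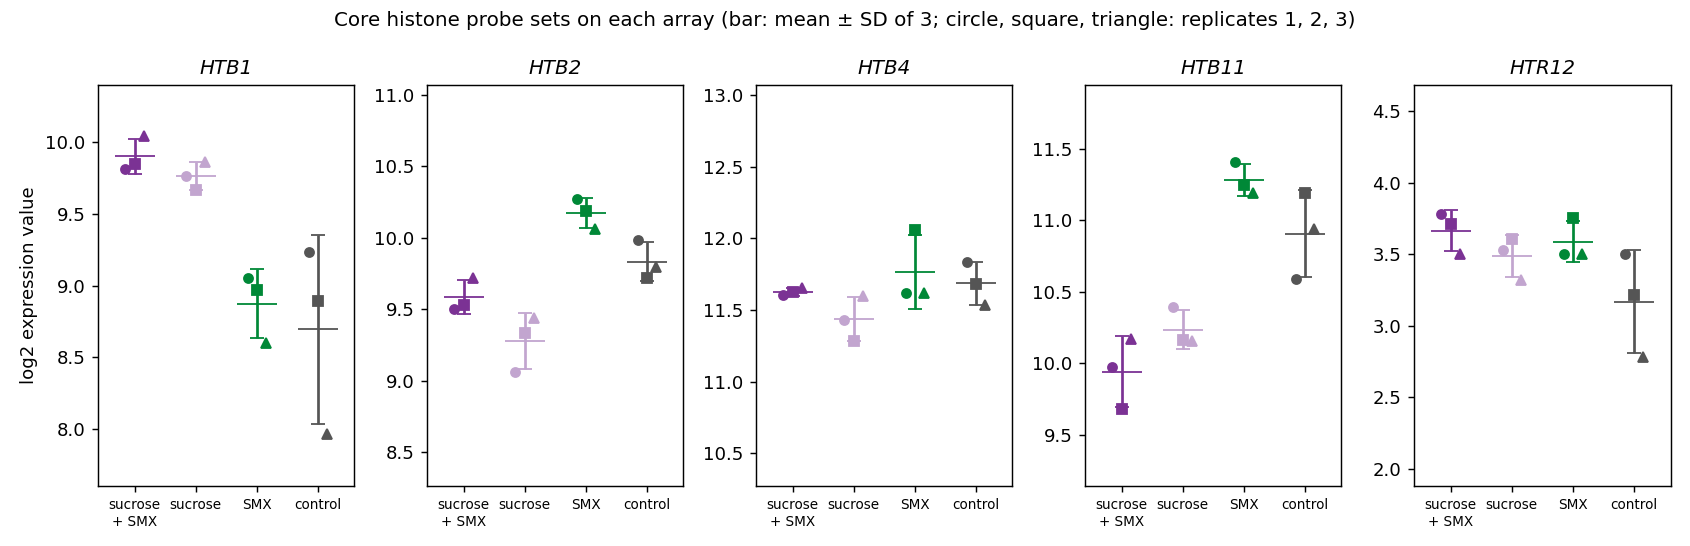
Log2 expression value (vertical axis, each panel spanning the same range of log2 units) of the 5 core histone genes on each array, by treatment. Points are the 3 replicates and bars the mean ± SD. HTB1 was higher in the 6 arrays with sucrose than in the 6 without, HTB11 and HTB2 tended the other way, HTB4 stayed between 11.3 and 12.1, and HTR12 lay between 2.78 and 3.78, close to the floor.

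SMX given without sucrose brought no histone gene past the test. HTB2 read 10.27, 10.19 and 10.06 in SMX seedlings, against 9.98, 9.72 and 9.80 in control seedlings. All 3 SMX arrays lay above all 3 control arrays. The change was 0.34 (SE 0.11, 95% interval 0.08 to 0.60, 1.27-fold), with an unadjusted p of 0.0154 and a limma adjusted p of 0.682. An SMX group wholly above the control was found for 4.1% of all probe sets. HTB11 read 11.41, 11.25 and 11.19 with SMX, against 10.59, 11.19 and 10.94 in the control, a change of 0.38 (SE 0.17, 95% interval -0.01 to 0.76; limma adjusted p = 0.755). The lowest SMX array met the highest control array.

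HTB4 had 11.62, 12.06 and 11.62 with SMX and 11.84, 11.68 and 11.54 in the control, a change of 0.08 (95% interval -0.22 to 0.38; limma adjusted p = 0.982). HTB1 had 9.05, 8.97 and 8.60 with SMX and 9.24, 8.89 and 7.96 in the control, a change of 0.18 (95% interval -0.47 to 0.83; limma adjusted p = 0.975). For these genes the groups overlapped, and the intervals still hold changes of either sign. HTR12 read 3.50, 3.75 and 3.50 with SMX and 3.50, 3.22 and 2.78 in the control, a change of 0.42 (SE 0.17; limma adjusted p = 0.723). Its values lay near the floor, and 4 of the 12 arrays carried the same value of 3.50, so this size is not exact.

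Across the 5 genes, 0 were called for SMX alone, against 0.0835% of all probe sets. All 5 changes were above 0 and their median was 0.34, against 0 over all probe sets. At an unadjusted p under 0.05, which 1510 of all probe sets reached, the histone genes were HTB2 and HTR12.

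With sucrose present, adding SMX again brought no histone gene past the test. HTB2 read 9.50, 9.53 and 9.72 with sucrose plus SMX, against 9.06, 9.34 and 9.44 with sucrose alone. The arrays did not overlap, as they did not without sucrose. The change was 0.31 (SE 0.11, 95% interval 0.05 to 0.56, 1.24-fold), with an unadjusted p of 0.0255 and a limma adjusted p of 0.734. A sucrose plus SMX group wholly above the sucrose group was found for 4.64% of all probe sets. HTB4 had 11.60, 11.62 and 11.65 with both and 11.43, 11.28 and 11.60 with sucrose alone, a change of 0.19 (95% interval -0.11 to 0.49; limma adjusted p = 1). Its groups were also apart, by the gap between 11.602 and 11.596.

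HTB11 stood on the other side. It read 9.97, 9.68 and 10.17 with sucrose plus SMX, against 10.39, 10.16 and 10.15 with sucrose alone, a change of -0.29 (SE 0.17, 95% interval -0.68 to 0.09; limma adjusted p = 1). One array with both additions lay just above 2 of the sucrose arrays, so the groups overlapped. HTB1 changed by 0.14 (95% interval -0.51 to 0.79; limma adjusted p = 1) and HTR12 by 0.18 (95% interval -0.22 to 0.57; limma adjusted p = 1), with overlapping arrays. Of the 5 genes 0 were called, against 0.189% of all probe sets, and the median change was 0.18 with 4 above 0.

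**Figure D2:**
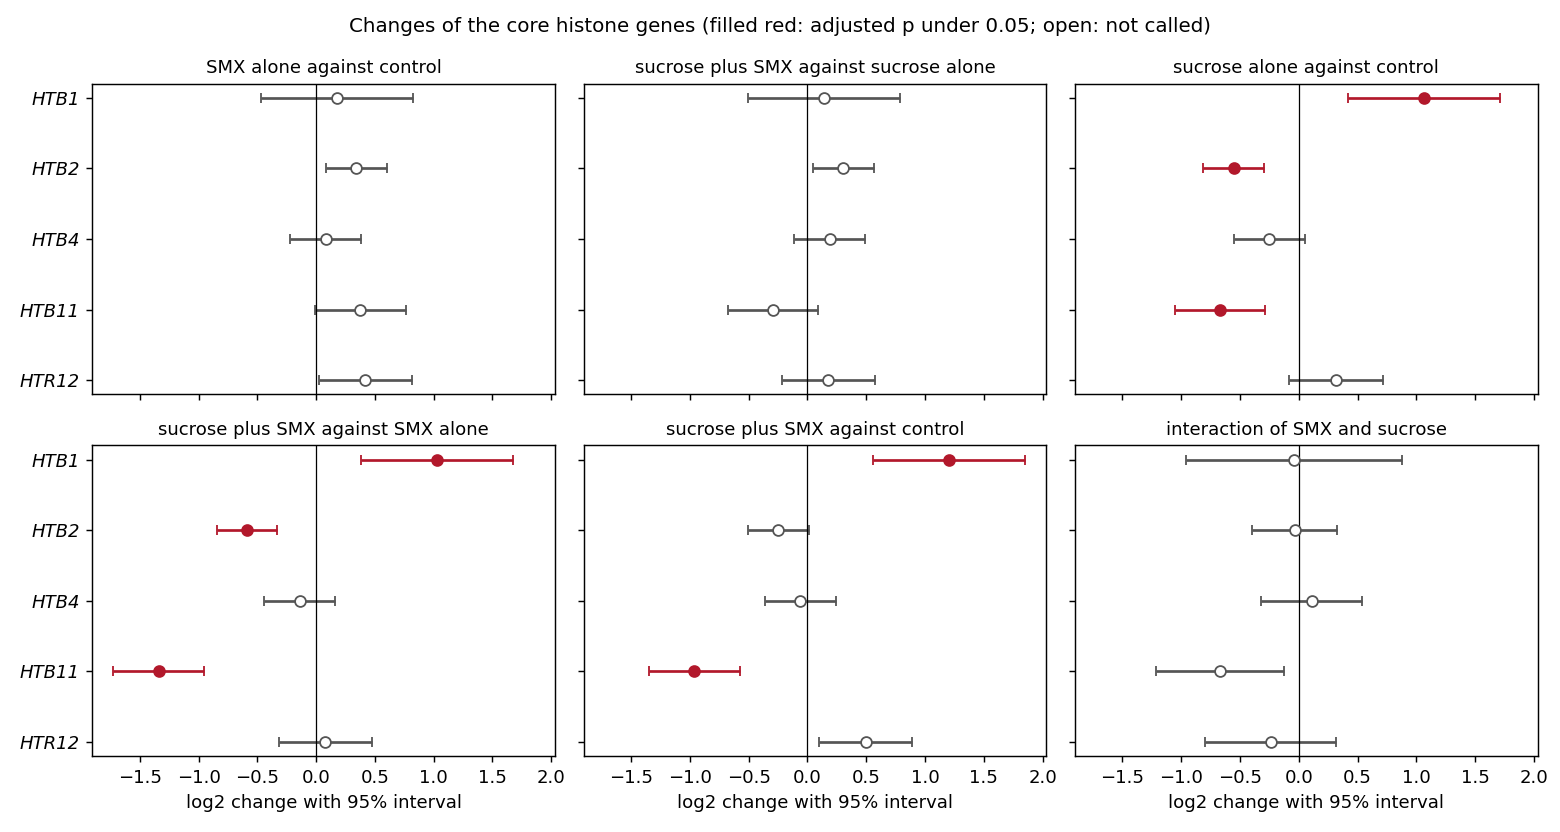
Log2 change (horizontal axis) of each core histone gene in the 6 comparisons, with the 95% interval from limma. Filled red points passed an adjusted p of 0.05: none in the SMX comparisons or the interaction, and HTB1, HTB2 and HTB11 in the sucrose comparisons, with HTB2 open for sucrose plus SMX against control.

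The interaction asks whether the SMX change with sucrose differed from the SMX change without it. None of the 5 genes was called, against 0.0703% of all probe sets. HTB11 had the largest difference, -0.67 (SE 0.24, 95% interval -1.22 to -0.12), with an unadjusted p of 0.0217 and a limma adjusted p of 0.672. Its SMX change was 0.38 without sucrose and -0.29 with it. HTB2 had an interaction of -0.04 (SE 0.16, 95% interval -0.40 to 0.33), since its SMX changes of 0.34 and 0.31 lay close together. HTB1 gave -0.04 (SE 0.40), HTB4 0.11 (SE 0.19) and HTR12 -0.24 (SE 0.25), with limma adjusted p of 1, 0.965 and 0.902.

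Of the 4 H2B genes, 1 was higher and 2 were lower in seedlings with sucrose alone than in the control. HTB1 read 9.77, 9.66 and 9.86 with sucrose alone, against 9.24, 8.89 and 7.96 in the control. Every sucrose array lay above every control array, and the control arrays were spread more widely (SD 0.66, against 0.10 with sucrose). The change was 1.07 (SE 0.28, 2.10-fold; limma adjusted p = 0.0274). HTB11 read 10.39, 10.16 and 10.15 with sucrose alone, against 10.59, 11.19 and 10.94 in the control, a change of -0.67 (SE 0.17, 1.59-fold; limma adjusted p = 0.0226). HTB2 read 9.06, 9.34 and 9.44 with sucrose alone, against 9.98, 9.72 and 9.80 in the control, a change of -0.55 (SE 0.11, 1.47-fold; limma adjusted p = 0.00954). For both genes all sucrose arrays lay below all control arrays. Groups without overlap, by any margin, were found for 17.1% of all probe sets upward and 17.7% downward.

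HTB4 changed by -0.25 (SE 0.13, 95% interval -0.55 to 0.05; limma adjusted p = 0.226) and HTR12 by 0.32 (SE 0.17, 95% interval -0.08 to 0.71; limma adjusted p = 0.241), with overlapping groups. Thus 1 of the 5 genes rose and 2 fell with sucrose alone. Of all probe sets 11.9% rose and 11.6% fell, 23.5% in all. The median change of the 5 was -0.25, against 0 over all probe sets.

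The step from SMX to sucrose plus SMX called the same 3 genes in the same directions. HTB11 read 9.97, 9.68 and 10.17 with sucrose plus SMX, against 11.41, 11.25 and 11.19 with SMX alone. The change of -1.34 (SE 0.17, 2.53-fold; limma adjusted p = 0.000689) was the largest of the 5 genes in any comparison. HTB2 had 9.50, 9.53 and 9.72 with both and 10.27, 10.19 and 10.06 with SMX alone, a change of -0.59 (SE 0.11, 1.504-fold; limma adjusted p = 0.00445). HTB1 had 9.82, 9.85 and 10.04 with both and 9.05, 8.97 and 8.60 with SMX alone, a change of 1.03 (SE 0.28, 2.04-fold; limma adjusted p = 0.0233). None of these 3 genes had overlapping groups, which held for 22.3% of all probe sets upward and 23% downward. HTB4 (-0.14, limma adjusted p = 0.488) and HTR12 (0.08, limma adjusted p = 0.862) were not called. The count of 1 higher and 2 lower stands against 16.2% higher and 16.2% lower among all probe sets, 32.5% in all. This comparison shares the sucrose plus SMX arrays with the SMX step in sucrose, and the SMX arrays with the SMX step without it.

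With both additions against the control, HTB1 rose and HTB11 fell. HTB1 had 9.82, 9.85 and 10.04 with sucrose plus SMX and 9.24, 8.89 and 7.96 in the control, a change of 1.21 (SE 0.28, 2.31-fold; limma adjusted p = 0.0142). HTB11 had 9.97, 9.68 and 10.17 with both and 10.59, 11.19 and 10.94 in the control, a change of -0.96 (SE 0.17, 1.95-fold; limma adjusted p = 0.00402). HTB2 changed by -0.25 (SE 0.11, 95% interval -0.51 to 0.01; limma adjusted p = 0.148) and its arrays overlapped. HTR12 changed by 0.49 (SE 0.17; limma adjusted p = 0.067), and HTB4 by -0.06 (SE 0.13; limma adjusted p = 0.874). HTB1 and HTB11 alone had groups apart, against 18.7% of all probe sets upward and 19.9% downward. The share called among all probe sets was 27.2%, with 13.5% higher and 13.7% lower.

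The order of the 4 treatments therefore differed between the genes. HTB1 averaged 9.90 with sucrose plus SMX, 9.76 with sucrose, 8.87 with SMX and 8.70 in the control, and the arrays were apart only between sucrose and SMX. HTB11 had the reverse order of the sucrose levels, with 11.28 for SMX, 10.90 for the control, 10.24 for sucrose and 9.94 for sucrose plus SMX, again apart only across the sucrose step. HTB2 averaged 10.17 with SMX, 9.83 in the control, 9.58 with sucrose plus SMX and 9.28 with sucrose, and only the control and the sucrose plus SMX arrays overlapped as neighbours. HTB4 averaged 11.77 with SMX, 11.69 in the control, 11.63 with sucrose plus SMX and 11.44 with sucrose, and its arrays were apart only between the last pair. HTR12 averaged 3.66 with sucrose plus SMX, 3.59 with SMX, 3.49 with sucrose and 3.17 in the control, with overlap between all neighbours.

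The arrays with and without sucrose also differed in labelling. The spike score is the log2 difference between the 3′ and 5′ probe sets of the Bacillus transcripts dap, lys and phe, which Affymetrix supplies as labelling controls. It averaged -0.25 with sucrose plus SMX, -0.23 with sucrose, 4.47 with SMX and 4.11 in the control, with no overlap between the sucrose levels. The same difference for actin (the actin score) averaged 1.15, 1.48, 6.48 and 5.80 in that order. Control replicate 1 had the lowest control spike score, 2.56, the highest control value of HTB1 and the lowest of HTB11. Control replicate 3 had the highest, 5.41, and the lowest control value of HTB1, 7.96. HTB11 was highest in control replicate 2, 11.19, and not in replicate 3, 10.94. Of the SMX arrays, replicate 1 had the lowest spike score, 2.90, and the highest HTB1, 9.05. It also had the highest HTB11, 11.41, the other way from the control. SMX replicate 2 had the highest score, 5.73, but HTB1 was lowest in SMX replicate 3, 8.60. No test of a link between score and gene within a treatment is given, though the fits with a score as a covariate rest on such a slope.

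With the spike score as a covariate, no histone gene was called in a sucrose comparison, and 49 probe sets in all were called for sucrose alone in place of 5336. HTB1 shrank to 0.09 (SE 0.47; limma adjusted p = 1) for sucrose alone and to -0.03 (SE 0.50; limma adjusted p = 1) for the step from SMX to sucrose plus SMX. HTB2 was larger than without the covariate, at -0.87 (SE 0.21; limma adjusted p = 0.174) and -0.93 (SE 0.22; limma adjusted p = 0.109). HTB11 was -0.40 (SE 0.35; limma adjusted p = 0.803) and -1.05 (SE 0.38; limma adjusted p = 0.23). With the actin score HTB1 was 0.54 and 0.37, HTB2 -0.83 and -0.94, and HTB11 -0.27 and -0.85, with no call (limma adjusted p from 0.0814 to 0.875 over these 6 values). These fits take the slope of a gene on the score from differences within treatments. They extend it across the gap in score between the sucrose levels. Since the score separates the sucrose levels, labelling and sucrose cannot be told apart in these arrays. The SMX changes of HTB2 kept their size with the spike score, 0.37 without sucrose and 0.30 with it (limma adjusted p = 0.468 and 0.599).

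**Figure D3:**
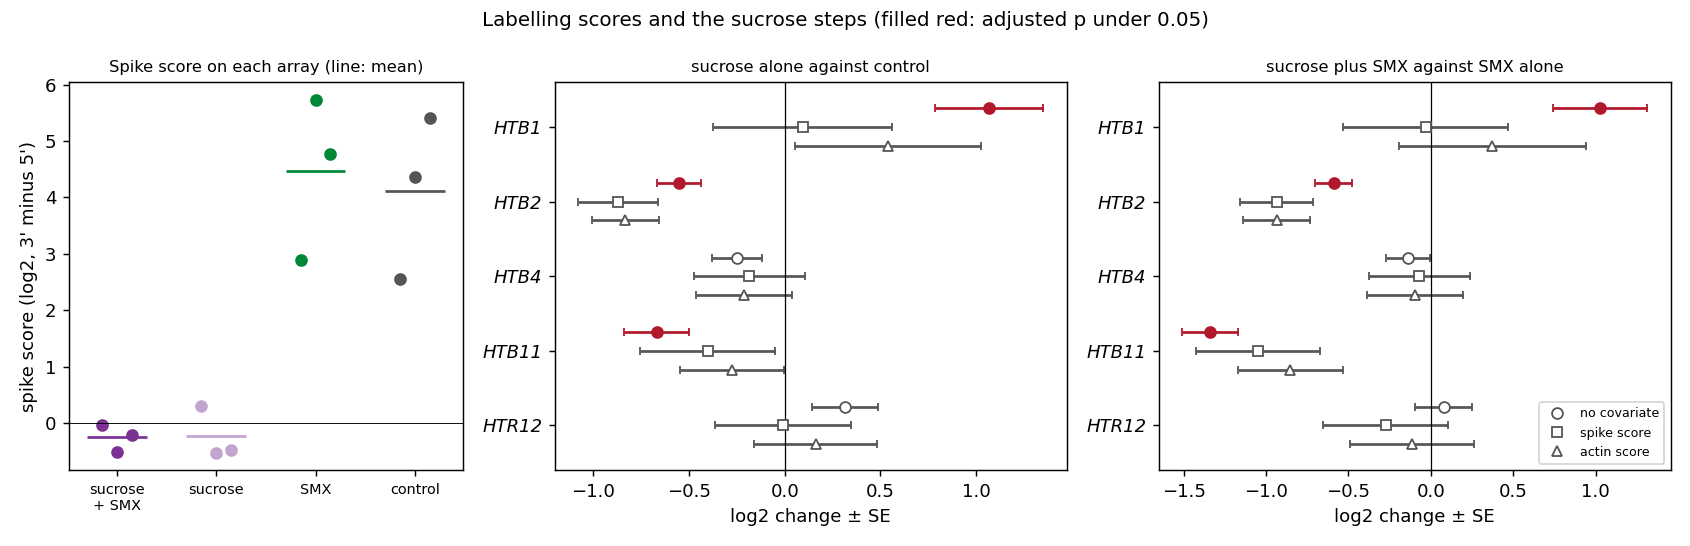
Left, the spike score (log2, 3′ minus 5′ probe sets) on each array by treatment, near 0 in the 6 arrays with sucrose and from 2.56 to 5.73 in the 6 without. Middle and right, log2 change ± SE of each histone gene in the sucrose comparisons without a covariate and with each score; HTB1 moves toward 0, HTB2 does not, and no value is called with a score.

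Of the 8 calls in the 3 sucrose comparisons, 5 held in all 12 fits that each left out 1 array, and 3 did not. For sucrose alone the count of 3 fell to 1 when control replicate 2 or either of sucrose replicates 2 and 3 was dropped, where HTB2 alone stayed called, and to 0 when only the 6 arrays compared were fitted. HTB11 also missed the threshold without control replicate 3 and HTB1 without sucrose replicate 1. With the replicate number as a block, HTB11 had a limma adjusted p of 0.0519 for sucrose alone. For the step from SMX to sucrose plus SMX, the HTB1 call ended without any 1 of the 3 sucrose plus SMX arrays, SMX replicate 2 or SMX replicate 3 (limma adjusted p from 0.0503 to 0.0773), while HTB2 and HTB11 stayed called in all 12 such fits. The calls of HTB1 and HTB11 with both additions against the control also held in all 12 (limma adjusted p at most 0.0492 and 0.0155). With both additions against the control, HTB1 (limma adjusted p = 0.101) and HTB11 (limma adjusted p = 0.0515) were not called when only the 6 arrays compared were fitted.

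Root markers moved with sucrose beside these changes. EXPA7, EXPA18 and AT1G30870 (3 of 3 matched) rose by 2.75, 3.96 and 2.40 with sucrose alone (limma adjusted p at most 0.0071). None was called in an SMX step. Their mean log2 value per array lay between 9.05 and 9.42 with sucrose plus SMX, 7.57 and 8.64 with sucrose, 5.04 and 5.49 with SMX, and 4.76 and 5.31 in the control. The seed gene M17 was not called and averaged 6.26 ± 0.39 with sucrose plus SMX, 7.79 ± 1.22 with sucrose, 10.2 ± 0.46 with SMX and 8.67 ± 3.16 in the control (SD, n = 3 each). The part of these markers in the histone changes was not tested, and the markers were not examined with a labelling score.

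The H3.1, H3.3 and H4 genes were covered by probe sets that the annotation pairs with several genes, so only the class can be named. Lists of loci drawn up by hand gave the classes. They put 5 probe sets that each list the same 5 loci in H3.1. The H3.3 class had 3 that list the same 3 loci, and the H4 class 5 that list the same 8 loci. By the platform annotation the probe sets of a class share targets, so they were not taken as independent. Which of the listed genes each probe set reads was not examined. H3.1 is the H3 form deposited during replication and H3.3 the form used for replacement. These were taken up after the coverage of the arrays was known.

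With SMX alone, 5 of 5 H3.1 and 5 of 5 H4 probe sets lay above 0, with medians of 0.26 and 0.31, and 3 of 3 H3.3 probe sets lay below 0, with a median of -0.07. None of these 13 was called (limma adjusted p from 0.583 to 1). With sucrose present the SMX medians were 0.06 for H3.1, 0.19 for H4 and 0.03 for H3.3, again with no call (limma adjusted p from 0.776 to 1). With sucrose alone the H3.1 probe sets went both ways, 2 above 0 and 3 below 0, with changes from -0.41 to 0.55. The rise of 0.55 was not called (limma adjusted p = 0.123). Called lower were 1 of 5 H3.1 and 1 of 5 H4 probe sets, and none of the 3 H3.3 probe sets passed the test. Among all probe sets 11.6% were called lower and 11.9% higher. The H4 probe set averaged 8.60 ± 0.14 with sucrose and 9.21 ± 0.38 in the control (SD, n = 3 each), a change of -0.62 (SE 0.16; limma adjusted p = 0.0269). The H3.1 probe set averaged 8.65 ± 0.09 with sucrose and 9.06 ± 0.16 in the control (SD, n = 3 each), a change of -0.41 (SE 0.11; limma adjusted p = 0.0298).

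From SMX to sucrose plus SMX, 2 of 5 H3.1 and 2 of 5 H4 probe sets fell, and 1 of 3 H3.3 probe sets rose, against 16.2% lower and 16.2% higher among all probe sets. The medians were -0.43 for H3.1, -0.31 for H4 and 0.06 for H3.3. Of the 5 H3.1 probe sets 1 lay above 0, by 0.37, and was not called (limma adjusted p = 0.271). The largest fall, in the same H4 probe set as above, was -1.07 (SE 0.16; limma adjusted p = 0.00157), and the H3.3 probe set rose by 0.50 (SE 0.13; limma adjusted p = 0.0165). In fits with a labelling score, run on these classes after seeing the data, none of the 13 probe sets was called in a sucrose comparison (lowest limma adjusted p 0.227 for the spike score and 0.159 for the actin score). A difference between the classes was not tested.

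**Figure D4:**
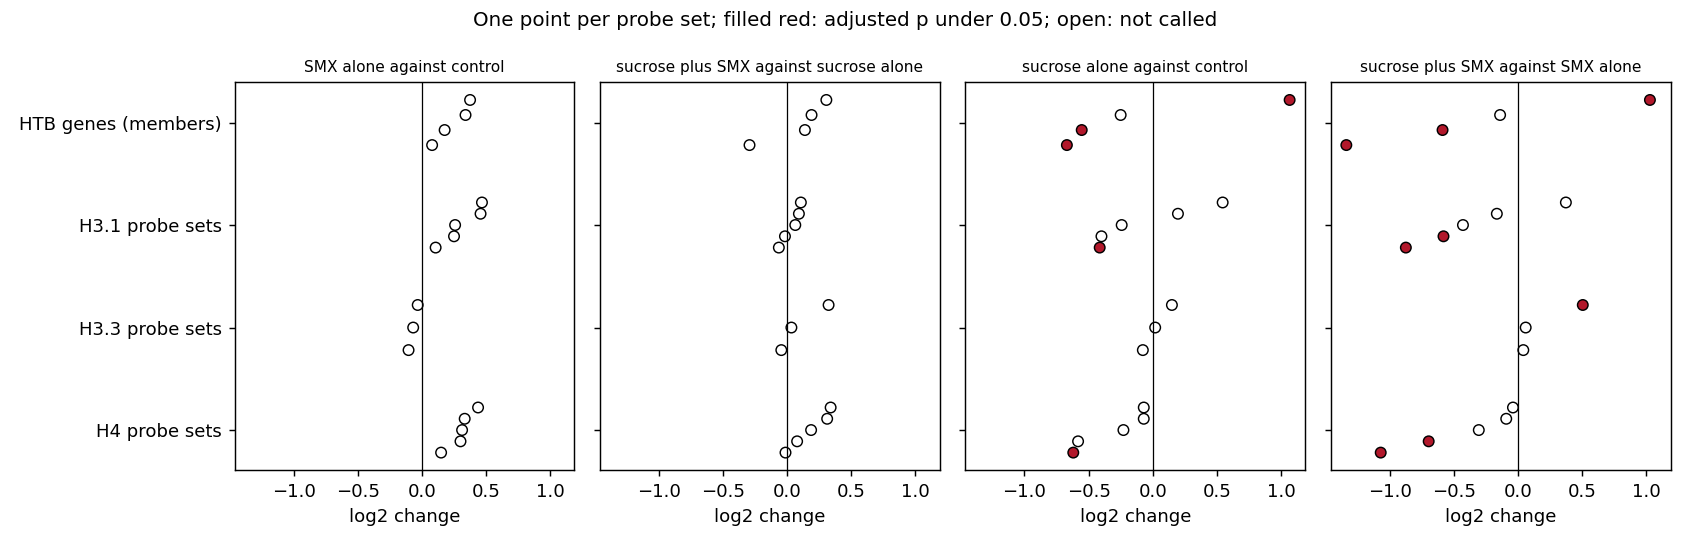
Log2 change (horizontal axis) of the 4 HTB genes and of the H3.1, H3.3 and H4 probe sets in the SMX steps and the sucrose steps, 1 point per probe set. Filled red points passed an adjusted p of 0.05; none did in the SMX steps, and in the sucrose steps the called points lie below 0 but for HTB1 and 1 H3.3 probe set.

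A list of H2B loci drawn up by hand held 5 further one-gene probe sets, which the annotation names by locus only. With SMX alone 0 of 5 were called (median 0.15). With sucrose alone 1 of 5 fell (median -0.25), and from SMX to sucrose plus SMX 1 of 5 fell (median -0.59), against 11.6% and 16.2% of all probe sets. With either labelling score 0 of 5 were called in a sucrose comparison (lowest limma adjusted p 0.738). A list of other H3 loci held 4, none called in any of the 6 comparisons. Their group means lay between 2.1184 and 2.69, at or near the floor, among them MGH3, the H3 variant of male gametes.

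Few genes that work with histones could be matched to a one-gene probe set. The annotation gives no gene for 8730 of the 22746 probe sets, so unmatched loci need not be absent from the arrays. The counts stand against the same shares of all probe sets. Of 14 loci listed for histone chaperones 3 were matched. SGA2 (ASF1A), a chaperone of H3 and H4, fell with sucrose alone by 0.61 on the log2 scale (SE 0.16, limma adjusted p = 0.0231). It averaged 7.36 ± 0.20 with sucrose and 7.97 ± 0.20 in the control (SD, n = 3 each). ASF1B, its paralog, changed by -0.70 (SE 0.28, limma adjusted p = 0.112). The remaining matched chaperone, AT4G37210, lay on the other side, with a change of 0.10 (SE 0.13, limma adjusted p = 0.674). Of 29 loci for DNA replication and S phase 3 were matched and none of these was called in any comparison. PRL (MCM7), a subunit of the replicative helicase, changed by 0.01 with SMX alone (95% interval -0.58 to 0.59), and ICU2, the catalytic subunit of DNA polymerase alpha, by 0.28 (95% interval -0.25 to 0.82).

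Of 20 loci for G2 and M phase 3 were matched, the Aurora kinases AUR1, AUR2 and AUR3, which act in mitosis. None was called for SMX alone or sucrose alone. AUR1 changed by -0.005 and AUR2 by 0.05 with SMX alone, and neither was called in any comparison. AUR3 changed by 0.73 with SMX alone (SE 0.21), with an unadjusted p of 0.0079 and a limma adjusted p of 0.582, and it fell by 0.74 on the log2 scale from SMX to sucrose plus SMX (SE 0.21; limma adjusted p = 0.0257). Of the 3 linker histone loci, 1 rose with sucrose alone, AT1G06760, by 0.80 (SE 0.13, limma adjusted p = 0.0039). The chaperone, Aurora kinase and linker histone calls were not examined with a labelling score. HIS1-3, a linker histone H1, averaged 6.54 ± 0.94 with SMX and 7.69 ± 0.58 in the control (SD, n = 3 each), a change of -1.15 that was not called (SE 0.49; limma adjusted p = 0.735).

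Likeness of pattern was measured as the Euclidean distance between 12-array profiles, each centred on its own mean, over 6875 one-gene probe sets that were no histone members and had a mean of at least 5. The mean profile of the 4 HTB genes varied little, averaging 10.26 with sucrose plus SMX, 10.18 with sucrose, 10.52 with SMX and 10.28 in the control, since HTB1 and HTB11 offset each other. Its nearest genes were AT2G39390 (distance 0.308), AT5G65900 (0.366), AT1G75510 (0.369), AT1G19710 (0.372) and the urease gene URE (0.397). Distances among the 4 genes ran from 0.904 between HTB4 and HTB2 to 3.80 between HTB11 and HTB1. They cannot be set against the nearest genes, which were picked as the smallest distances of 6875.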

How the data were processed

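Each array has 22810 deposited measurements, taken to be log2 because they span 2.1184 to 15.7, as no base is stated. GCRMA and limma appear, without versions or roles, in the submitters' processing notes. Precision is limited by 3 arrays per treatment.

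The 64 Affymetrix control probe sets were left out, and the remaining 22746 entered 1 fit of all 12 arrays (lmFit and eBayes, limma 3.58.1, R 4.3.3), tested on simulated data. The platform annotation gives 1 gene with 1 symbol for 13513 of them and no gene for 8730. The other 503 are annotated but not with exactly 1 gene and 1 symbol. The platform annotation and RefSeq's TAIR10.1 table served for names. Cross-hybridization between H2B paralogs was not tested.

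Members, lists, comparisons and tests were chosen with earlier results of these data known, and the lists are no independent evidence. Every member was named, with values for those called or largest, up to 3 called genes of each related list, and the 5 nearest profiles. The alternatives were a replicate block, the 6 arrays compared, a mean above 6, median centring, quantile normalization, an eBayes trend, the spike score, one-gene probe sets, and each array left out. The actin score and leaving out control replicate 1 with sucrose replicate 1 were added after seeing the data. Whether replicate numbers pair the arrays was not settled. Deviations from group means correlated between -0.36 and 0.22 over 15 same-numbered pairs. They lay from 0.03 to 0.16 for SMX with control and from 0.09 to 0.22 for sucrose plus SMX with sucrose. For sucrose with control they lay from -0.36 to 0.07. Differently numbered pairs were not compared.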

Additional observations from a re-analysis of the deposited data

How the results depend on the processing

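The counts of called genes in the SMX steps and the interaction were 0 under every alternative run. For sucrose alone the count of 3 was 0 with only the 6 arrays compared, with the spike score or with the actin score, and 1 to 3 with single arrays left out. From SMX to sucrose plus SMX it was 0 with either score and 2 to 3 with single arrays left out. With both against control the count of 2 was 0 with only the 6 arrays or either score and 2 to 3 with single arrays left out; HTR12 was the gene added, without control replicate 1 (0.66, limma adjusted p = 0.0148). The median change from SMX to sucrose plus SMX was -0.36 at a mean above 6, where HTR12 dropped out. The interaction median ran from -0.31 to 0.013 with single arrays left out, and was -0.31 without control replicate 1 and sucrose replicate 1 together. With the replicate block HTB11 lost its call for sucrose alone (limma adjusted p = 0.0519), HTR12 was called with both against control (0.49, limma adjusted p = 0.0301), and no other call changed. Whether the numbers pair the arrays was not settled, so this says nothing of effect size.

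With the spike score the called HTB1 change of 1.03 from SMX to sucrose plus SMX became -0.031. The other signs that turned were of changes that were not called. With the spike score HTR12 was -0.0076 for sucrose alone and -0.27 from SMX to sucrose plus SMX, and HTB4 0.0058 with both against control. With the actin score HTR12 was -0.11 from SMX to sucrose plus SMX. After median centring the interaction was 0.018 for HTB1 and 0.022 for HTB2. HTB4 was 0.016 with both against control without control replicate 1 and sucrose replicate 1 together. With single arrays left out, HTB1 ran from -0.19 to 0.45 and HTB4 from -0.067 to 0.16 for SMX alone, HTB4 from -0.21 to 0.0076 from SMX to sucrose plus SMX and from -0.13 to 0.016 with both against control, and the interaction from -0.31 to 0.33 for HTB1 and from -0.14 to 0.045 for HTB2. Quantile normalization called HTB4 for sucrose alone (-0.38, limma adjusted p = 0.049) and HTB2 with both against control (-0.36, limma adjusted p = 0.0291). The cause of these shifts was not tested.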

Other observations

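Genes nearest to single H2B genes in pattern differed from gene to gene. Those closest to HTB1 over the 12 arrays were AT3G52960 (distance 0.494) and AT1G20950 (0.546). For HTB11 they were AT2G25720 (0.424) and AT1G19110 (0.471), for HTB2 AT3G62080 (0.393) and AT1G27700 (0.542), and for HTB4 AT2G28540 (0.304) and AT1G51540 (0.34). This list per gene was added after seeing the data. These distances describe these arrays and carry no test.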
